A study of Mus musculus with 6 samples.

Results

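The cell cycle and DNA replication genes described here are 40 genes taken by symbol from a list, out of the 18810 genes of the deposited expression table. The rule uses no measured value, but the list was chosen with earlier results of these data known. They cover the cyclins and their kinases, the Cip/Kip inhibitors, the licensing and fork proteins, nucleotide synthesis, mitosis, and the proliferation markers Mki67 and Top2a. All 40 were found in the table, and each averaged at least 1 RPKM, which is read number scaled to exon length and to the depth of the library. RNA was sequenced from atrioventricular canal regions with the mitral, tricuspid and aortic valves, dissected at E15.5 from 3 Scx-/- embryos and from 3 Scx+/+ littermates on the C57BL/6 strain, with 1 library for each. Scx encodes scleraxis, a basic helix-loop-helix transcription factor of tendon and valve progenitors. The null allele is carried by every cell of the embryo, and the dissected pieces were not sorted, so fewer cells of a type and less RNA per cell cannot be told apart in any value below.

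Cells enter the cycle when D-type cyclins and their kinases inactivate the retinoblastoma proteins and release E2F factors, which turn on cyclin E and the genes of DNA replication. Mcm2 to Mcm7 are loaded onto origins by Cdc6 and Cdt1 in G1, and the cyclin B and Cdk1 complex later drives mitosis, whose genes are held down in resting cells by the DREAM complex. In remodeling valves, proliferation of the mesenchyme falls as the leaflets thin and elongate, while embryonic cardiomyocytes, erythroid precursors and epicardial cells also divide.

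The promoters of 34 of the 40 genes were in the RefSeq set used here (GRCm38.p6, 250 bases before to 50 bases after each start). They were searched on both strands for TTTGAA, the core of the cell cycle homology region (CHR) bound by DREAM, for the CCAAT box and for TTTNNCGC, the core of an E2F site. CCAAT was in 26 of the 34 (76.5%, against 37.4% of 32851 promoters), TTTGAA in 13 (38.2% against 17.9%) and TTTNNCGC in 10 (29.4% against 5.17%). A gene was counted if any of its promoters matched, where Mcm7, Cdkn1a and Ccnd3 had 2 each, while the shares of all promoters are per promoter. The E2F letters were in promoters of 6 of the 9 licensing and fork genes of the set. TTTGAA was in 2 of those 9 (Mcm2 and Cdc45), in none of the promoters of the D-type cyclin, E-type cyclin, Cip/Kip and nucleotide synthesis groups, in 4 of 6 promoters of the mitotic kinase group, 3 of 4 of the kinetochore and motor group and in both of Mki67 and Top2a. It was in 2 of 3 promoters of the A- and B-type cyclin and Cdk1 group, and neither Ccnb1 nor Bub1 had a match. These matches describe the letters in a fixed window and do not show binding. The 3 promoters below show a licensing gene with E2F letters (Mcm6), a mitotic cyclin with TTTGAA (Ccnb2) and a gene with all 3 motifs (Cdk1), 5′ to 3′ on the coding strand, with the matched letters in capitals and ATTGG marking CCAAT on the other strand. In Mcm6 a pair of E2F matches on opposite strands overlap.
Mcm6 (chr1:128359656-128359955, minus strand): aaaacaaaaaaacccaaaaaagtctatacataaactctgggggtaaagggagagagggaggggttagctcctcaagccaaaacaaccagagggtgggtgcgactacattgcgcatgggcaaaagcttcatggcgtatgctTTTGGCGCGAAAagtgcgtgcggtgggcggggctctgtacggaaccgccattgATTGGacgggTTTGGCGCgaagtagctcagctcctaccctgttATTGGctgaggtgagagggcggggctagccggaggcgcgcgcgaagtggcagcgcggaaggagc
Ccnb2 (chr9:70421505-70421804, minus strand): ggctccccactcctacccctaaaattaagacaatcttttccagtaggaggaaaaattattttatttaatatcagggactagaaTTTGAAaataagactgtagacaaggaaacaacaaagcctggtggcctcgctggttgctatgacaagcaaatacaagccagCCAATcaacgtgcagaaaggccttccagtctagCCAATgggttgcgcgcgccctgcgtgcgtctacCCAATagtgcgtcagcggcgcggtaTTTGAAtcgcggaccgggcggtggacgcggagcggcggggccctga
Cdk1 (chr10:69352863-69353162, minus strand): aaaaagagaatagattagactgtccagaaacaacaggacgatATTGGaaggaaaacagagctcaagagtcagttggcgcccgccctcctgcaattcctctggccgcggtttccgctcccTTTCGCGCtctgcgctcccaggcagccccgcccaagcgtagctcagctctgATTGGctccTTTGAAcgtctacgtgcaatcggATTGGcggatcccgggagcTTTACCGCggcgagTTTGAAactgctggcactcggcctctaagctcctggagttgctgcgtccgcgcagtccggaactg

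Depth was about 46400000 to 68600000 reads per library, and the 40 genes had from 119 reads (Cdkn1a) to 59505 reads (Top2a) in a library. The whole-gene value of the targeted gene does not check the labels. Scx as a whole gene was 33.6, 18.6 and 82.9 RPKM in Scx-/- replicates 1 to 3 and 29.5, 58.3 and 26.0 RPKM in Scx+/+ replicates 1 to 3, and the table has no value for exon 1 alone, the part that the study assayed by another method before sequencing. Genotypes are those of the labels. The 10 most abundant genes held 56.9% of the summed RPKM of Scx+/+ replicate 2, where this share was 30.7% to 43.9% elsewhere, and replicate 2 of both genotypes expressed Xist where the others expressed Ddx3y.

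The cell cycle genes were abundant in the atrioventricular canal of both genotypes. Their mean over the 6 libraries had a median of 21.1 RPKM, and 31 of the 40 lay above the 75th percentile of the 13541 protein-coding genes of the table. Top2a, the topoisomerase that untangles replicated DNA, was at the 96.2 percentile and Rrm1, the large subunit of ribonucleotide reductase, at the 95.9 percentile. Cdkn1a, the p21 inhibitor of cyclin-dependent kinases, had the lowest level of the 40, at the 27.2 percentile. Between the highest and the lowest library a gene differed by 1.28-fold (Rrm2) to 3.23-fold (Cdc6), with a median of 1.67-fold, and in the plot of all levels the symbols of the genotypes are mixed for nearly every gene.

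**Figure D1:**
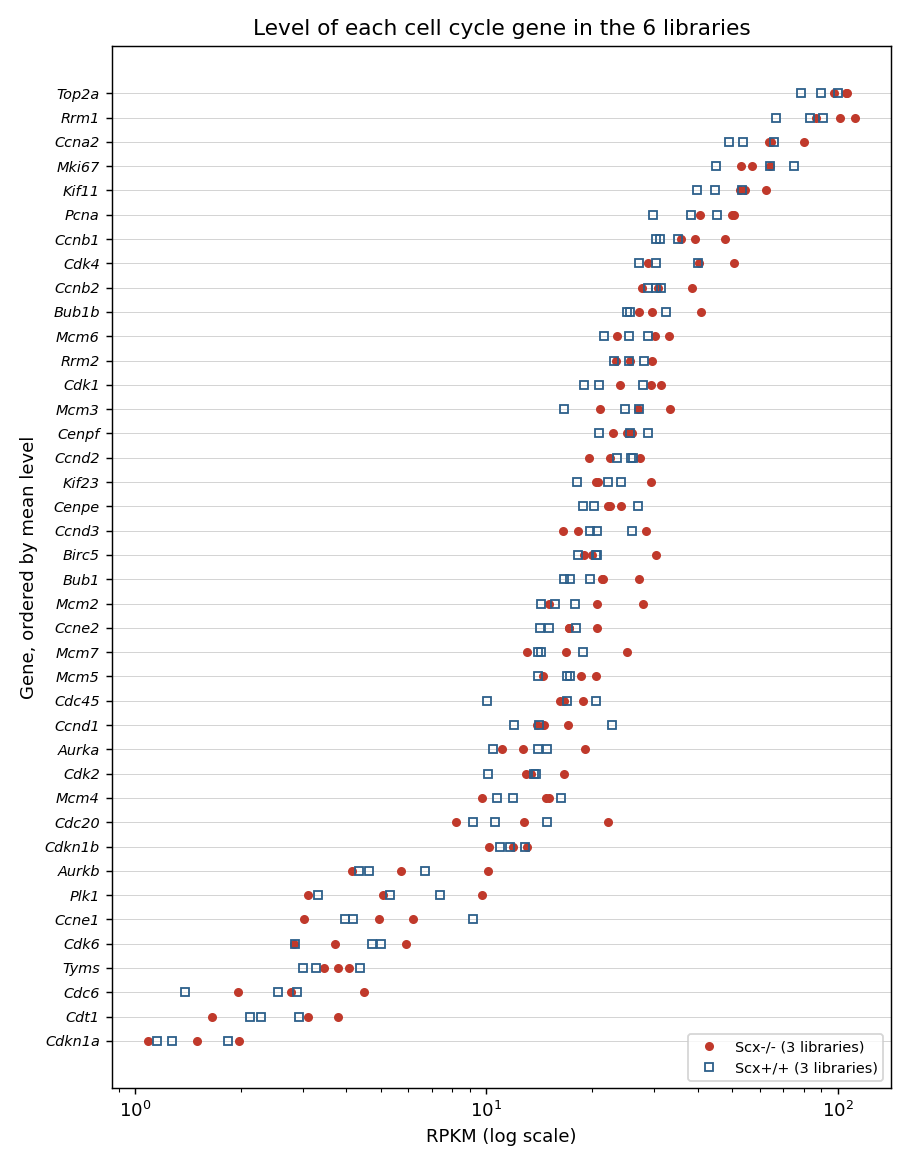
RPKM (log scale, x axis) of each of the 40 cell cycle genes (y axis, ordered by mean level) in the 3 Scx-/- libraries (filled circles) and the 3 Scx+/+ libraries (open squares). Levels run from near 1 RPKM for Cdkn1a to above 100 RPKM for Top2a and Rrm1, and only Ccnb1 and Bub1 have all filled circles to the right of all open squares.

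The comparison of genotypes asked which of these genes differ when Scx is lost. None of the 40 passed an unadjusted p below 0.05 by limma on log2(RPKM + 0.1), where 3.89% of all genes did, and none passed an adjusted p below 0.05, where 0% of all genes did (adjusted p 0.967 to 0.997 over the 40). The fitted differences (Scx-/- minus Scx+/+, log2) ran from -0.23 for Ccne1 to 0.40 for Cdc6, with a median of 0.18. The median of all genes was itself 0.10 and 63.8% of all genes were above 0, against 32 of the 40 (80.0%) here. Each library was then centred on its median deviation over the genes averaging 1 RPKM or more. After this, 24 of the 40 were above 0 and their median was 0.073. The 3 Scx-/- values lay above the 3 Scx+/+ values for Ccnb1 and Bub1 (5.0% of the 40, against 7.19% of all genes) and below them for none (2.31% of all genes).

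The precision of each gene bounds what could have been seen. Standard errors ran from 0.16 to 0.43 (median 0.21), and the 95% interval of each of the 40 genes spanned 0. For 35 genes the interval lay within 2-fold in both directions. The interval of 5 genes passed 2-fold, that of Ccne1 downwards (-1.09) and those of Cdc6 (1.28), Plk1 (1.04), Aurkb (1.03) and Cdc20 (1.02) upwards. A p that misses the threshold does not show that the genotypes are alike. These p-values set each difference against a spread between 3 embryos of each genotype, moderated over all genes.

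**Figure D2:**
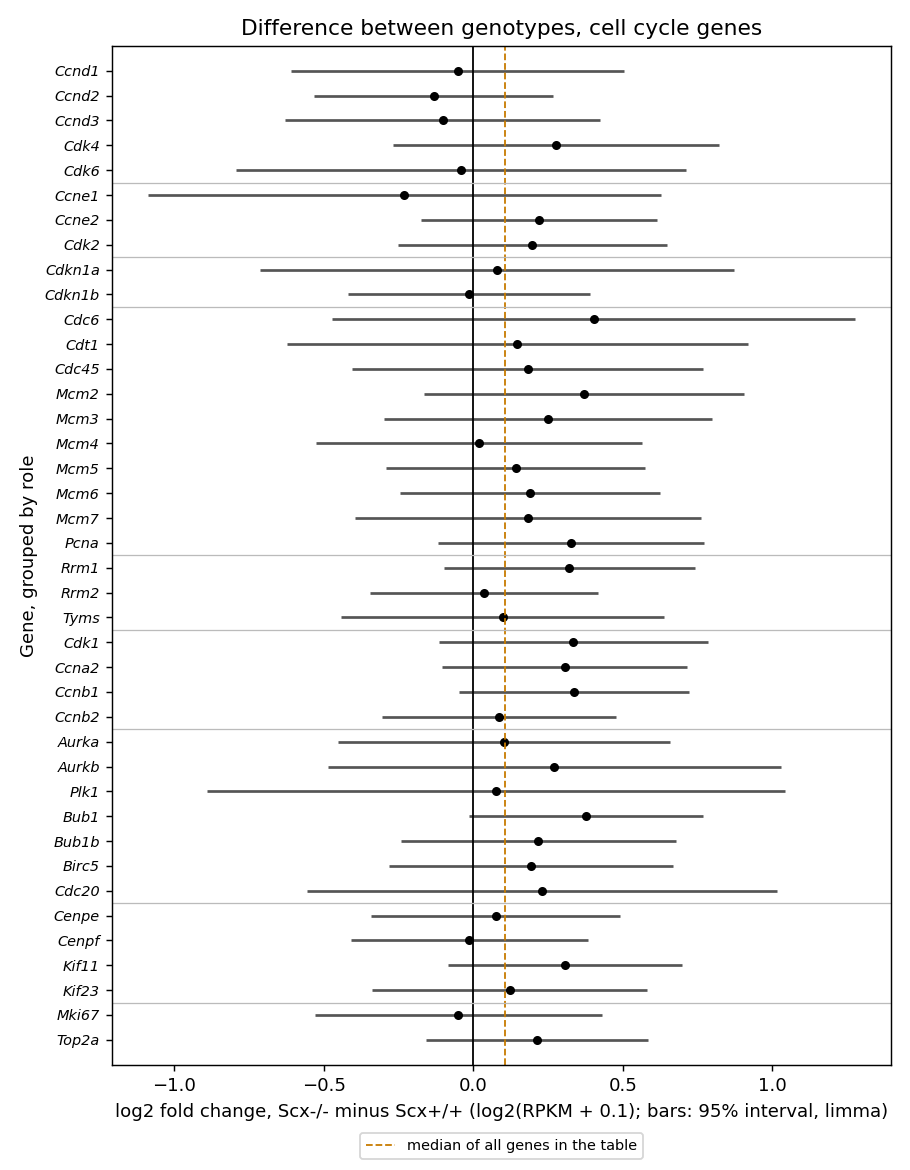
Fitted log2 fold change (Scx-/- minus Scx+/+, x axis) of each cell cycle gene with its 95% interval from limma, grouped by role (y axis), and the median of all genes of the table (dashed line, 0.10). Most points lie right of 0 and close to the dashed line, and every interval spans 0.

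Of the 5 genes for D-type cyclins and their kinases, which carry growth signals into the cycle, 1 (Cdk4) had a fitted difference above 0 and none passed the test, with a median of -0.052. Ccnd2 was 27.4, 22.4 and 19.6 RPKM in the Scx-/- libraries and 25.8, 23.5 and 26.2 RPKM in the Scx+/+ libraries. Its values overlapped, with the highest and the lowest of all 6 both in Scx-/-, and the fitted difference was -0.13 ± 0.18 (SE, n = 3 each; limma adjusted p = 0.967). Ccnd2 was the one gene of the 40 with a difference below 0 in each of the 14 alternatives that can change a fold change, without being called in any.

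Cdk4, the catalytic partner of the D-type cyclins, was 50.7, 40.4 and 28.9 RPKM in Scx-/- and 40.1, 27.1 and 30.5 RPKM in Scx+/+ (0.28 ± 0.24). The genotypes overlapped, since Scx-/- replicate 3 was below the highest Scx+/+ libraries. Cdk4 exceeded its relative Cdk6 by 6.07-fold to 10.9-fold in RPKM in every library. Ccnd1 was 17.1, 13.9 and 14.6 RPKM in Scx-/- and 14.1, 22.7 and 12.0 RPKM in Scx+/+ (-0.052 ± 0.25), with Scx+/+ replicate 2 standing above the other 5. In that library Ccnd2 exceeded Ccnd1 by 1.03-fold, and in the other 5 by 1.34-fold to 2.17-fold. Ccnd3 and Cdk6 had differences of -0.10 and -0.041.

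Among the E-type cyclins and Cdk2, which start S phase, 2 of 3 genes were above 0 and none passed the test. Ccne1 was 4.96, 3.02 and 6.19 RPKM in Scx-/- and 4.17, 9.15 and 3.97 RPKM in Scx+/+. The highest value was again Scx+/+ replicate 2, the genotypes overlapped, and the difference was -0.23 ± 0.38 (limma adjusted p = 0.972), which became 0.15 without that library. Ccne2 was 17.1, 17.2 and 20.7 RPKM in Scx-/- and 15.1, 17.96 and 14.2 RPKM in Scx+/+ (0.22 ± 0.18), also overlapping. The ratio of Ccne2 to Ccne1 was 1.96 in Scx+/+ replicate 2 and 3.34 to 5.70 in the other libraries, so cyclin E2 was the more abundant E-type transcript throughout. Cdk2 had a difference of 0.20 ± 0.20.

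The Cip/Kip inhibitors, which bind and block cyclin-dependent kinases, had a median of 0.032. Cdkn1a, an inhibitor induced by p53, was 1.98, 1.09 and 1.50 RPKM in Scx-/- and 1.27, 1.15 and 1.84 RPKM in Scx+/+. Both genotypes covered nearly the same range and the difference was 0.079 ± 0.35 (limma adjusted p = 0.994). Cdkn1b, the p27 inhibitor typical of resting cells, was 13.1, 11.9 and 10.2 RPKM in Scx-/- and 12.9, 11.7 and 10.9 RPKM in Scx+/+, an almost complete overlap (-0.015 ± 0.18, interval -0.42 to 0.39). With each library centred in the same way, the Scx-/- values of Cdkn1b all lay below the Scx+/+ values (-0.12). This was so for 5.37% of all genes. Cdkn1b exceeded Cdkn1a by 5.92-fold to 11.0-fold.

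The 10 licensing and fork genes were all above 0, with a median of 0.19, and none passed the test. Without Scx-/- replicate 1, 3 of them were below 0 (Mcm4 at -0.091, Cdt1 at -0.088 and Mcm7 at -0.069), and Cdc45 was at -0.11 without Scx+/+ replicate 3. Cdc6, which loads the Mcm helicase onto origins, had the largest fitted difference of the 40. It was 4.50, 2.79 and 1.97 RPKM in Scx-/- and 2.55, 2.90 and 1.39 RPKM in Scx+/+. The genotypes overlapped, the high value was Scx-/- replicate 1, and the difference was 0.40 ± 0.39 (limma adjusted p = 0.967). It was 0.099 without Scx-/- replicate 1, 0.097 without Scx+/+ replicate 3 and 0.68 without Scx-/- replicate 3.

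Mcm4 was the least abundant of the Mcm2 to Mcm7 helicase subunits in all 6 libraries, and Mcm6 the most abundant in 5, with Mcm3 above it in Scx-/- replicate 1. The highest subunit exceeded the lowest by 1.77-fold to 2.43-fold. Mcm4 was 15.1, 14.8 and 9.70 RPKM in Scx-/- and 16.3, 10.7 and 11.9 RPKM in Scx+/+ (0.018 ± 0.24), with both extremes split between the genotypes. Mcm2 had the largest difference of the subunits, at 28.0, 20.7 and 15.1 RPKM in Scx-/- and 17.9, 14.3 and 15.7 RPKM in Scx+/+ (0.37 ± 0.24, and 0.15 to 0.60 with 1 library left out). The genotypes overlapped through Scx-/- replicate 3. The others lay between these values, at 0.25 for Mcm3, 0.14 for Mcm5, 0.19 for Mcm6 and 0.18 for Mcm7, beside 0.15 for the loader Cdt1 and 0.18 for the helicase cofactor Cdc45.

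Pcna, the sliding clamp of DNA polymerase, was 50.6, 40.6 and 50.1 RPKM in Scx-/- and 38.4, 45.3 and 29.9 RPKM in Scx+/+ (0.33 ± 0.20, limma adjusted p = 0.967). The genotypes overlapped through Scx+/+ replicate 2. The level of Pcna is uncertain, because the pseudogene Pcna-ps2 (mm9 chr19:9357869-9358654) matched its transcript at 98.5% over 786 bases and was listed at 89.2 to 156 RPKM, 2.90-fold to 3.28-fold the RPKM of Pcna. In reads it stood at 94.3% to 106.7% of Pcna, with 780 exon bases against 2400. Reads shared by near-identical copies could not be assigned from the table.

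Nucleotide synthesis supplies the deoxynucleotides of S phase, and its 3 genes were above 0 with a median of 0.099. Rrm1 was 112, 87.0 and 102 RPKM in Scx-/- and 91.1, 83.5 and 67.0 RPKM in Scx+/+ (0.32 ± 0.19). Only Scx+/+ replicate 1 stood within the range of the Scx-/- libraries. Rrm2, the small subunit of the same reductase, was 29.7, 23.4 and 25.6 RPKM in Scx-/- and 28.1, 25.5 and 23.1 RPKM in Scx+/+ (0.035 ± 0.17). Its genotypes were interleaved, and Rrm1 exceeded Rrm2 by 2.90-fold to 3.97-fold. Tyms, thymidylate synthase, had a difference of 0.099 ± 0.24.

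The A- and B-type cyclins and Cdk1, the engine of G2 and mitosis, had the highest median of the role groups (0.32 over 4 genes, all above 0, none called). Ccnb1, cyclin B1 (mm9 chr13:101548605-101556525), was 47.7, 39.3 and 35.8 RPKM in Scx-/- and 35.2, 31.2 and 30.3 RPKM in Scx+/+. All 3 Scx-/- values lay above all 3 Scx+/+ values by a narrow margin, and the difference was 0.34 ± 0.17 (interval -0.049 to 0.72, limma adjusted p = 0.967). After quantile normalization its genotypes overlapped. The Ccnb1 values are uncertain as well, since 2 pseudogenes matched its transcript, Gm5593 at 99.2% over 1290 bases and Gm12856 at 98.1% over 1294 bases. Gm5593 was listed at 49.2 to 56.0 RPKM in Scx-/- and 40.1 to 42.1 RPKM in Scx+/+ (0.33 ± 0.15), levels that were 1.17-fold to 1.38-fold those of Ccnb1. In reads it stood at 35.9% to 42.1% of Ccnb1.

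Ccnb2, cyclin B2, was 38.5, 30.7 and 27.8 RPKM in Scx-/- and 31.4, 30.4 and 28.9 RPKM in Scx+/+ (0.085 ± 0.17). The Scx+/+ values fell inside the range of Scx-/-. Cdk1, the kinase of both B-type cyclins, was 31.4, 24.1 and 29.4 RPKM in Scx-/- and 20.9, 27.9 and 19.0 RPKM in Scx+/+ (0.33 ± 0.20). Scx-/- replicate 2 and Scx+/+ replicate 2 crossed, so its genotypes overlapped. Ccna2, cyclin A2, had a difference of 0.31 ± 0.18. The promoters of Ccnb2 and Cdk1 shown above both hold TTTGAA and CCAAT, and neither gene was called.

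The 7 genes of mitotic kinases, the spindle checkpoint and mitotic exit were all above 0, with a median of 0.22 and none called. Without Scx-/- replicate 1, 5 of the 7 (Plk1, Cdc20, Aurka, Aurkb and Birc5) were below 0. Bub1, a checkpoint kinase of the kinetochore (mm9 chr2:127626858-127657601), was 27.2, 21.4 and 21.6 RPKM in Scx-/- and 19.8, 16.6 and 17.3 RPKM in Scx+/+. Its genotypes did not overlap, and the difference of 0.38 ± 0.17 (interval -0.016 to 0.77, limma adjusted p = 0.967) came nearest to the threshold of the 40. No other gene of the table shared its exons, and no listed pseudogene matched it.

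Plk1, polo-like kinase of mitotic entry, was 9.72, 5.07 and 3.12 RPKM in Scx-/- and 7.39, 3.32 and 5.34 RPKM in Scx+/+. The Scx-/- libraries enclosed the whole range of Scx+/+, the difference was 0.076 ± 0.43, and it was -0.35 without Scx-/- replicate 1. Cdc20, the activator of the anaphase-promoting complex, was 22.2, 12.8 and 8.20 RPKM in Scx-/- and 14.9, 10.6 and 9.17 RPKM in Scx+/+ (0.23 ± 0.35, and -0.14 without Scx-/- replicate 1), with the highest and the lowest value in Scx-/-. Aurka, Aurkb, Bub1b and Birc5, which serve spindle poles, chromosome passenger and checkpoint functions, had differences of 0.10, 0.27, 0.22 and 0.19.

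Among kinetochore proteins and spindle motors, 3 of 4 were above 0 with a median of 0.098. Kif11, the motor that separates spindle poles, was 62.6, 52.7 and 54.6 RPKM in Scx-/- and 53.5, 39.8 and 44.7 RPKM in Scx+/+ (0.31 ± 0.17). One Scx+/+ library, replicate 1, lay between the Scx-/- values. Cenpf, a kinetochore protein of G2 and mitosis, was 26.1, 23.0 and 25.2 RPKM in Scx-/- and 28.9, 21.0 and 25.6 RPKM in Scx+/+ (-0.013 ± 0.18), with both extremes in Scx+/+. Cenpe and Kif23 had differences of 0.074 and 0.12.

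The most used proliferation marker, Mki67, was 64.3, 53.1 and 57.1 RPKM in Scx-/- and 75.1, 45.0 and 64.1 RPKM in Scx+/+. Its highest and lowest values were both in Scx+/+, and the difference was -0.051 ± 0.21 (interval -0.53 to 0.43, limma adjusted p = 0.993). Top2a was 106, 97.9 and 106 RPKM in Scx-/- and 100.2, 89.6 and 78.5 RPKM in Scx+/+ (0.21 ± 0.16, interval -0.16 to 0.59). Scx+/+ replicate 1 stood within the Scx-/- range, so neither marker separated the genotypes.

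**Figure D3:**
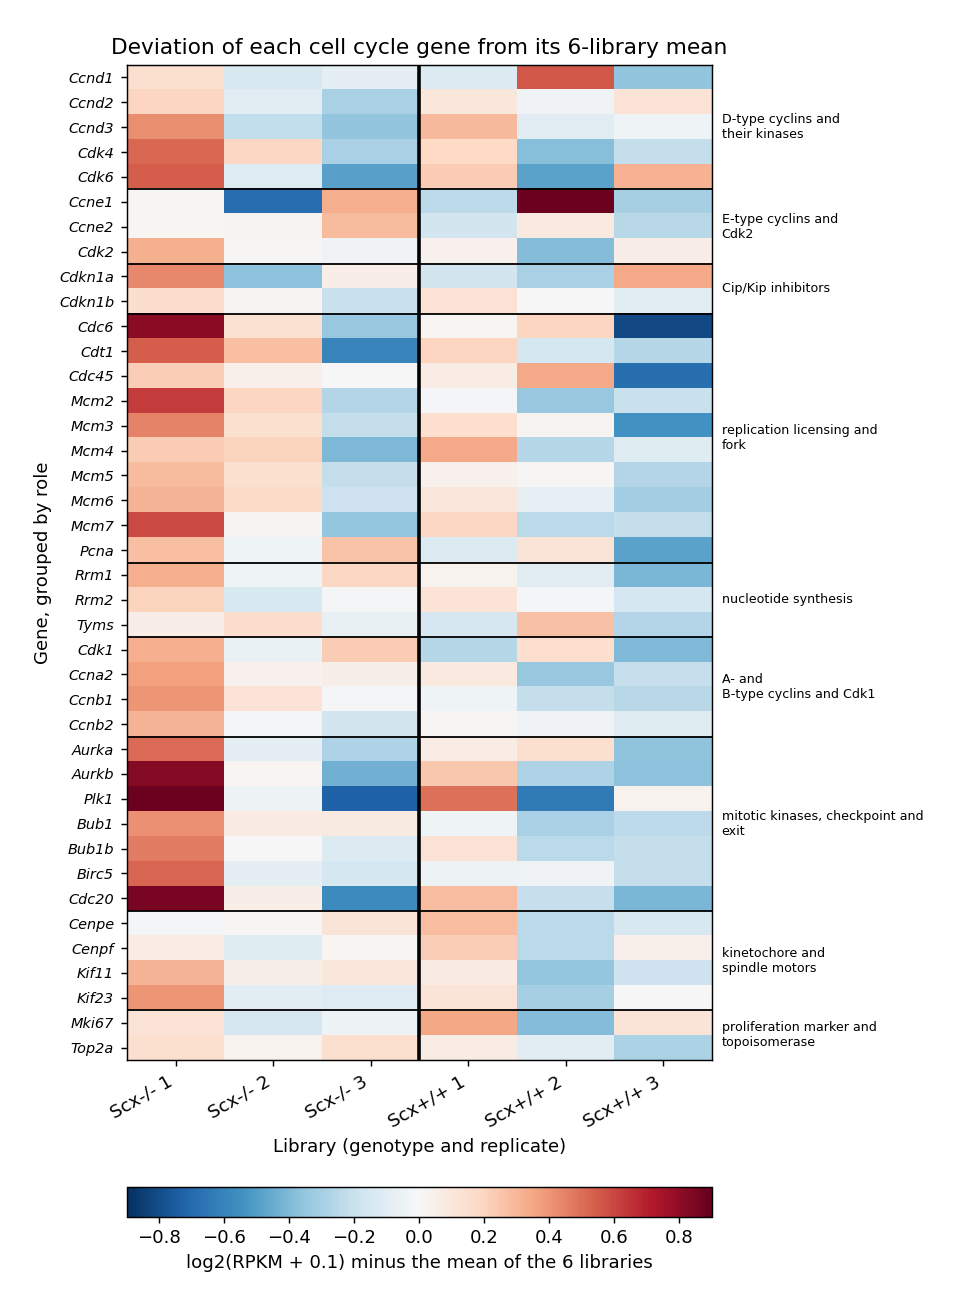
Deviation of log2(RPKM + 0.1) from the mean of the 6 libraries (colour) for each cell cycle gene (y axis, grouped by role) in each library (x axis, with a vertical line between genotypes). Scx-/- replicate 1 is red for most genes, while Scx-/- replicate 3 and Scx+/+ replicates 2 and 3 are mostly blue.

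The clearest order in these genes ran between libraries. Scx-/- replicate 1 had the highest value of the 6 libraries for 30 of the 40 genes. It was highest of the 3 Scx-/- libraries for 35, against 48.4% of the 13827 genes that averaged 1 RPKM or more. Those 13827 genes deviated upwards by a median of 0.15 in this library as well. The median deviation of the 40 genes from their mean was 0.33 in Scx-/- replicate 1, 0.012 in replicate 2 and -0.12 in replicate 3, and it was 0.080, -0.13 and -0.21 in Scx+/+ replicates 1 to 3. Only Scx-/- replicate 1 thus stood above every Scx+/+ library, and Scx-/- replicates 2 and 3 lay within the Scx+/+ range. The summed RPKM of the 40 genes was 1230.3, 987 and 971 in Scx-/- and 1046, 904 and 848 in Scx+/+. After the same centring the deviation of Scx-/- replicate 1 was 0.18, against -0.10 (Scx-/- replicate 3) to 0.058 (Scx+/+ replicate 1) in the other 5.

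**Figure D4:**
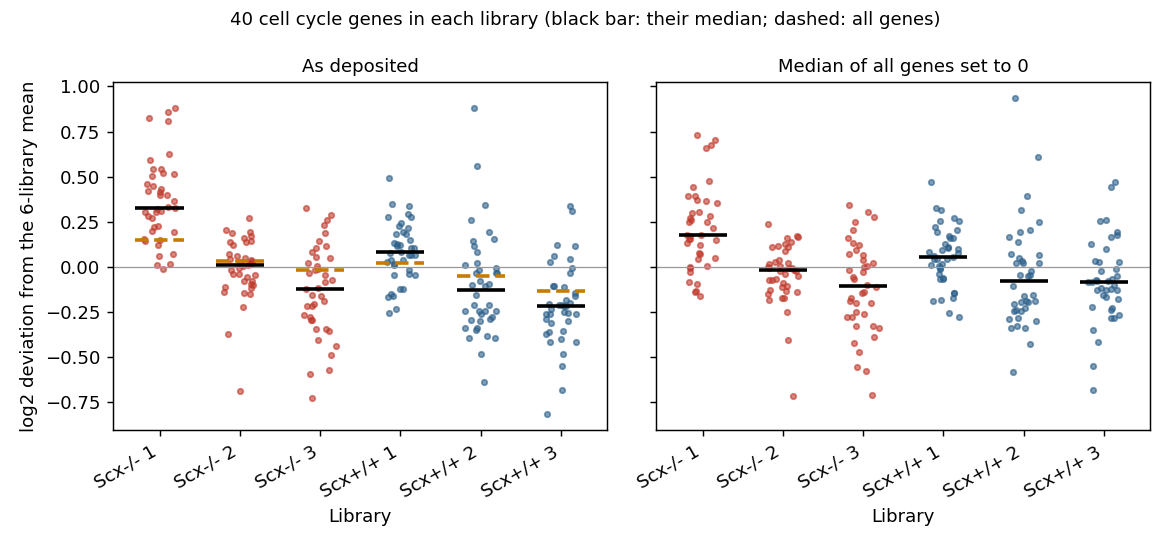
Deviation of log2(RPKM + 0.1) of each of the 40 cell cycle genes from its 6-library mean (points, y axis) in each library (x axis), as deposited (left) and after centring on genes averaging 1 RPKM or more (right). Black bars are the median of the 40 genes and dashed bars that of the genes averaging 1 RPKM or more. The black bar of Scx-/- replicate 1 is the highest in both panels, at 0.33 and 0.18.

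Scx-/- replicate 1 stood highest for most of these genes, so leaving it out had to lower most of their differences. Without it the median of the 40 differences was 0.0072, with 20 genes above 0. For all genes the median was then 0.056, and 56.9% were above 0. With centring as well the median of the 40 was -0.055, with 18 above 0, beside 49.3% of all genes. Leaving out other libraries produced calls at an unadjusted p below 0.05. These were Mcm2 and Ccnb1 without Scx-/- replicate 3 (4.36% of all genes called), Ccna2, Bub1 and Kif11 without Scx+/+ replicate 1 (5.33%), and Pcna and Cdk1 without Scx+/+ replicate 2 (8.23%), all higher in Scx-/-. Without Scx+/+ replicate 2 and with centring (7.71%), Cdk1 was called higher and Mki67 lower. Counts of 2 or 3 among 40 genes are near these shares or below them. A group of 14 genes (Bub1, Ccna2, Ccnb1, Ccne2, Cdc6, Cdk1, Cdk4, Kif11, Mcm2, Mcm3, Mcm6, Pcna, Rrm1 and Top2a) was above 0 in each of the 14 alternatives that can change a fold change. They are 35.0% of the 40, and 29.0% of 18695 genes were above 0 in the same 14.

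The ratio between Scx-/- libraries was read beside the GC content of the exons. The ratio of Scx-/- replicate 1 to replicate 3 was 1.73 to 3.12 for the 10 genes with the largest ratios, led by Plk1, Cdc20, Aurkb, Cdc6 and Cdt1, whose exons had a median GC content of 52.4%. It was 0.801 to 1.12 for the 10 with the smallest, among them Ccne1, Ccne2, Cenpe, Top2a and Pcna, with a median GC content of 43.9%. Spearman's rho between GC content and the log2 ratio was 0.68 over the 40 genes and 0.26 over the 13768 annotated genes averaging 1 RPKM or more. It describes a pair of libraries across genes that share them. After a trend on exon length and GC content was removed from each library, the median difference between genotypes was 0.052 and the median deviation of Scx-/- replicate 1 was 0.18, where it was 0.33 as deposited and 0.18 after centring alone.

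**Figure D5:**
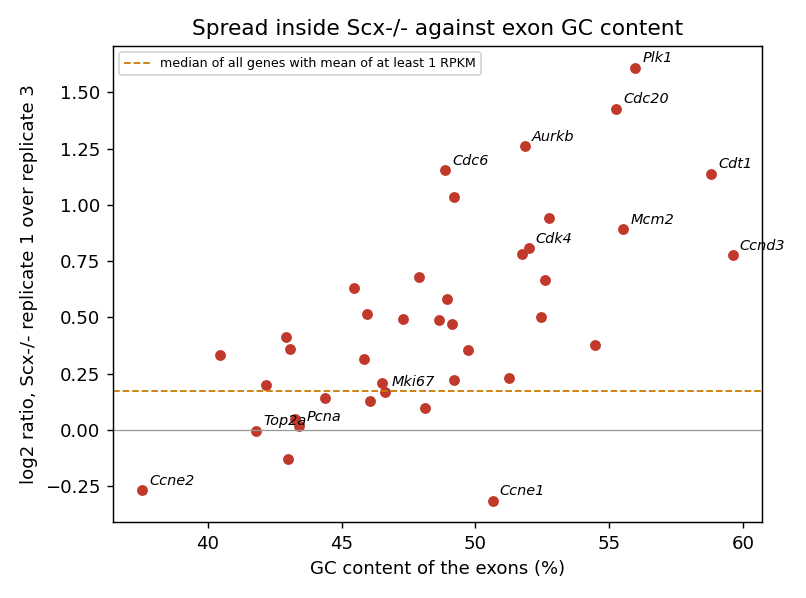
log2 ratio of RPKM in Scx-/- replicate 1 over replicate 3 (y axis) against the GC content of the exons in percent (x axis) for the 40 cell cycle genes (points), with the median over all genes averaging 1 RPKM or more (dashed line, 0.17). Genes rich in GC such as Plk1 and Cdc20 lie at the top right and Ccne2, with a GC content of 37.6%, at the lower left, while Ccne1 lies low at 50.6%.

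Of 124 further listed genes, 123 were in the table, 101 had a difference above 0 and the median was 0.20, against 0.10 for all genes. The test called 2 of them higher and 0 lower (1.63%, against 3.89% of all genes). For 13 of the 123 all Scx-/- values lay above all Scx+/+ values, a larger share than the 7.19% of all genes. For 0 they lay below (2.31% of all genes). The genes without overlap share the same libraries and were not tested as a set. A share of calls below the background is not a result about the list, and both called genes are given for their values. Prim2, the large subunit of DNA primase, was 11.9, 9.38 and 8.37 RPKM in Scx-/- and 7.30, 6.80 and 5.94 RPKM in Scx+/+, without overlap. The fitted difference was 0.55 ± 0.20 on the log2 scale (limma adjusted p = 0.967), a call that held for 4 of the 6 libraries when left out. Ndc80, a kinetochore protein that grips microtubules, was 42.1, 33.9 and 31.5 RPKM in Scx-/- and 29.5, 24.9 and 22.4 RPKM in Scx+/+, also without overlap. The fitted difference was 0.48 ± 0.18 (limma adjusted p = 0.967), and that call held for 2 of the 6.

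By list, the median difference was 0.13 for 20 genes of E2F, pocket proteins and the DREAM complex (16 above 0), 0.17 for 36 other replication genes (30 above 0) and 0.27 for 36 other mitosis genes (32 above 0). It was 0.20 for 16 genes of the anaphase-promoting complex (13 above 0), 0.23 for 5 other inhibitors of cyclin-dependent kinases (4 above 0) and 0.048 for 10 genes of the DNA damage checkpoint (6 above 0). The calls of Prim2 and Ndc80 were the only ones in these 6 lists. Scx-/- replicate 1 was the highest Scx-/- library for 88 of the 123 genes, and for 48.4% of all genes averaging 1 RPKM or more.

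Cells of several types divide at this stage, and their markers were read beside the cell cycle genes. Markers of the labelled tissue were detected. The 7 valve mesenchyme markers summed to 434 to 570.4 RPKM in Scx-/- and 407 to 455 in Scx+/+, none called. Postn held much of these sums (161 to 387 RPKM), while Sox9 and Twist1 were at 1.26 to 3.36 RPKM. Of the 7, 2 had a difference above 0 and the median was -0.031. The 8 cardiomyocyte markers summed to 8899 to 12142 and 8556 to 14095, and Ryr2 was called lower (-0.46 ± 0.18). Erythroid markers (7 of 8 listed in the table, none called) summed to 2737 to 4409 in Scx-/- and 2550.1 to 4288 in Scx+/+. The 6 endothelial markers summed to 114 to 134 and 114 to 129.6, none called. The 5 epicardial markers summed to 26.0 to 35.8 in Scx-/- and 21.9 to 26.0 in Scx+/+, with Tcf21 (0.57 ± 0.21) and Upk1b (0.61 ± 0.25) called higher, and the 6 macrophage markers to 7.44 to 13.3 and 6.42 to 11.7, with Cd68 called higher (1.48 ± 0.57). Each of these calls had a limma adjusted p of 0.967, and 3.89% of all genes were called at the same unadjusted threshold. With each of the 6 libraries left out in turn these calls held in 2 fits for Ryr2 and Upk1b and in 3 for Tcf21 and Cd68. Hbb-bh1, Cd68 and Fcgr1 stood at the fill-in value of the table in at least 1 library.

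In Scx-/- replicate 1 the cell cycle genes deviated by a median of 0.33, and all genes averaging 1 RPKM or more by 0.15. The markers deviated there by a median of 0.36 for macrophages, 0.33 for epicardium, 0.32 for erythroid cells, 0.16 for endothelium, 0.039 for cardiomyocytes and -0.080 for valve mesenchyme. Their part in the levels of the cell cycle genes was not tested. Exons of 11 of the 40 genes overlapped another gene (Ccnd1, Ccnd3, Cdk4, Cdk6, Ccne2, Cdc45, Mcm7, Tyms, Ccna2, Cdc20 and Top2a), and the strand used in counting is not given in the sources used here, so reads of the partner may be included. Besides those of Pcna and Ccnb1, pseudogenes matched Ccnd3 (Ccnd3-ps, 3.86 to 7.07 RPKM) and Cdc6 (Gm9430, 0.910 to 4.64 RPKM), and the values of these 4 genes carry that uncertainty.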

How the data were processed

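RNA was sequenced from 3 Scx-/- and 3 Scx+/+ atrioventricular canal regions. The authors aligned reads to mm9 with TopHat 1.4.1, counted them within Ensembl exons with easyRNASeq and deposited RPKM, with low values replaced by a common value (found at 0.0949 RPKM). No 40-gene value stood at it. Symbols, exon lengths and GC content came from GENCODE M1 and the mm9 genome (18695 of 18810 identifiers matched). Dividing out exon length and a solved depth gave whole reads within 0.1 read for 98.5% of the values under 1000 reads in each library, and for 240 of the 240 values of the 40 genes. Reads served only to describe depth and no count test was run.

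The table of 18810 genes was log2 transformed after adding 0.1 RPKM and fitted with limma 3.58.1 (R 4.3.3). Variances were moderated with an intensity trend, genotype was the only term, and p-values were adjusted by the Benjamini-Hochberg method over the whole table. The step was tested on simulated data. A fold change on this scale understates the change of low genes. Calls used an unadjusted p below 0.05, the threshold of the study. The members, lists and roles were chosen with earlier results of these data known, so no p was adjusted over a list. Full values are given for called members and called genes of the pathway lists, for the highest and lowest fitted difference of each role and for Mki67, Top2a, Cdk1, Pcna, Ccnd1, Ccnd2, Cdkn1a and Cdkn1b. Mcm2, Cdc20 and the pseudogenes were given in full after their values were seen. Pseudogenes of the table were aligned to member transcripts with blastn 2.17.0 (at least 95% identity over 200 bases). Promoters came from RefSeq, where 6 of the 40 genes had no entry.

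Alternatives were a pseudocount of 0.01 or 1 RPKM, a filter at a mean of 1 RPKM, no trend and one-way ANOVA on log2 RPKM. Others were centring on the median of the genes passing that filter, quantile normalization, a replicate block, and omission of each library in turn. Chosen after seeing the data were the omission of Scx-/- replicate 1 or Scx+/+ replicate 2 together with median centring, and the removal of spline trends on exon length and GC content (5 degrees of freedom). Tables and plots were made in Python 3.11.15 (pandas 2.3.3, numpy 2.4.6, matplotlib 3.10.9).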

Additional observations from a re-analysis of the deposited data

How the results depend on the processing

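No gene of the 40 was called with a pseudocount of 0.01 or 1, a minimum mean of 1 RPKM, no trend, median centring, quantile normalization, a replicate block or a trend on length and GC content removed. One-way ANOVA called 1 (Bub1), and 4.58% of all genes. Libraries of the same number did not deviate together (correlations 0.092, -0.22 and -0.19), so the numbers were not read as pairs. The replicate block gave 573 calls over all genes against 731, and a median of 0.18 for the 40. Of the calls over all genes 531 of 731 (72.6%) were higher in Scx-/-, against 281 of 646 (43.5%) with median centring and 353 of 703 (50.2%) with quantile normalization. Leaving out 1 library gave 0 to 3 calls among the 40, 539 to 1549 calls over all genes (1549 without Scx+/+ replicate 2), a median of 0.0072 to 0.27 and 2 to 8 genes without overlap (2 to 8 higher and 0 to 2 lower, beside 9.45% to 17.7% and 4.10% to 9.81% of all genes). With median centring as well, leaving out Scx-/- replicate 1 gave a median of -0.055 and 7 genes without overlap (2 higher and 5 lower, beside 8.31% and 9.62% of all genes), and leaving out Scx+/+ replicate 2 gave 2 calls among the 40, 1451 calls over all genes (7.71%) and 9 genes without overlap (5 higher and 4 lower, beside 12.0% and 16.0% of all genes). Removing the length and GC trend left 1 gene without overlap (Bub1, higher, beside 4.6% of all genes). Median centring alone left 3 (Ccnb1 and Bub1 higher and Cdkn1b lower, beside 4.15% and 5.37% of all genes). Quantile normalization left 2 (Pcna and Bub1, higher, beside 4.8% of all genes), and Ccnb1 then overlapped. Of the 40 differences 8 changed sign with median centring, Cdkn1a (-0.030), Mcm4 (-0.091), Rrm2 (-0.074), Ccnb2 (-0.024), Plk1 (-0.034), Aurka (-0.0071), Cenpe (-0.035) and Tyms (-0.011). With quantile normalization 7 did, Mcm4 (-0.093), Rrm2 (-0.082), Ccnb2 (-0.048), Plk1 (-0.0038), Aurka (-0.0034), Cenpe (-0.057) and Kif23 (-0.012). With the length and GC trend removed 8 did, Cdkn1a (-0.030), Mcm4 (-0.13), Rrm2 (-0.13), Ccnb2 (-0.087), Plk1 (-0.016), Aurka (-0.034), Kif23 (-0.0069) and Cenpf (0.015). Among the genes with full values that changed sign when a library was left out, the difference ran from -0.24 to 0.21 for Ccnd1, -0.45 to 0.15 for Ccne1, -0.12 to 0.28 for Cdkn1a, -0.097 to 0.083 for Cdkn1b, -0.11 to 0.22 for Mcm4, -0.057 to 0.11 for Rrm2, -0.047 to 0.19 for Ccnb2, -0.35 to 0.46 for Plk1, -0.14 to 0.57 for Cdc20, -0.14 to 0.093 for Cenpf and -0.26 to 0.11 for Mki67. The cause of these shifts was not tested.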
